A study of Mus musculus with 15 samples.

Results

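Oxidative phosphorylation is the chain of inner mitochondrial membrane complexes that turns the energy of reduced cofactors into ATP, and its subunits are encoded in both genomes of the cell. The set described here holds 35 of the 46517 genes counted: 13 that mitochondrial DNA encodes, which are all of its protein-coding genes, and 22 nuclear genes chosen by name as core subunits of complexes I to V together with cytochrome c. The choice was made with earlier results of these data known, so the counts of members that moved are not independent of it. All 35 were found in the count files and all 35 passed the filter on low counts.

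Complexes I and II pass electrons from NADH and succinate to ubiquinone, complex III passes them on to cytochrome c, and complex IV hands them to oxygen. Complexes I, III and IV pump protons, and complex V, the ATP synthase, uses the gradient to make ATP. Every complex except II contains subunits of both genomes, so its assembly needs products of both. In the kidney the proximal tubule and the thick ascending limb are the segments richest in mitochondria, because active reabsorption consumes ATP.

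The samples were kidneys of C57BL/6 mice. Messenger RNA was sequenced from 3 controls and 3 knockouts at postnatal day 0 (P0). Both groups had the genotype Dnmt1 f/f, a pair of floxed alleles of the maintenance DNA methyltransferase, and the knockouts (KO) also carried Six2Cre. Reduced representation bisulfite sequencing (RRBS), which reads cytosine methylation in restriction fragments rich in CpG, was run on 3 controls and 3 KO of the same genotypes and age and on 3 wild-type adults of 6 weeks. Six2 drives Cre in the nephron progenitors, so the cells that descend from them can recombine, while stroma, endothelium, blood cells and the ureteric bud are not derived from them. The labels name the source as Six2-positive cells but the protocol extracts DNA from whole kidneys, and RNA of stroma, endothelium and collecting duct was present at high levels in every library. The samples are therefore described as kidneys. In bulk samples fewer cells of a type and less RNA per cell cannot be told apart.

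Each RNA library held 26773937 to 34102567 counts assigned to genes. Each RRBS library held 18424875 to 88765177 methylation calls. Dnmt1 counts were 5908, 4826 and 6921 in controls and 3526, 3378 and 2467 in KO, a log2 fold change of -0.74 (SE 0.12, edgeR adjusted p = 0.00577) and every KO library lay below every control. Nothing in the labels says that the 3 libraries of a group came from separate animals, and the p-values then measure only the spread between these samples.

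The nuclear and the mitochondrial members did not move together. Of the 22 nuclear members 18 fell in KO at an edgeR adjusted p under 0.05 and 0 rose, and all 22 had a negative log2 fold change with a median of -0.71. Across all 18132 genes tested 8.23% fell and 6.36% rose, and the median was -0.00. Among the 4940 genes with a mean of at least 50 counts per 1000000 (CPM), a range that holds every nuclear member, 11.5% fell. In 20 of the 22 every KO library lay below every control, which held for 17.8% of all genes tested. Without KO 1 the number of nuclear members that fell was 9, and without each other single library it was 12 to 21. None of the 13 mitochondrial members passed the test in either direction, and 0 had an unadjusted p under 0.05 in edgeR. DESeq2 and limma voom also called 0 of them. All of their log2 fold changes were positive, with a median of 0.40, and in each of them the groups overlapped.

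**Figure D1:**
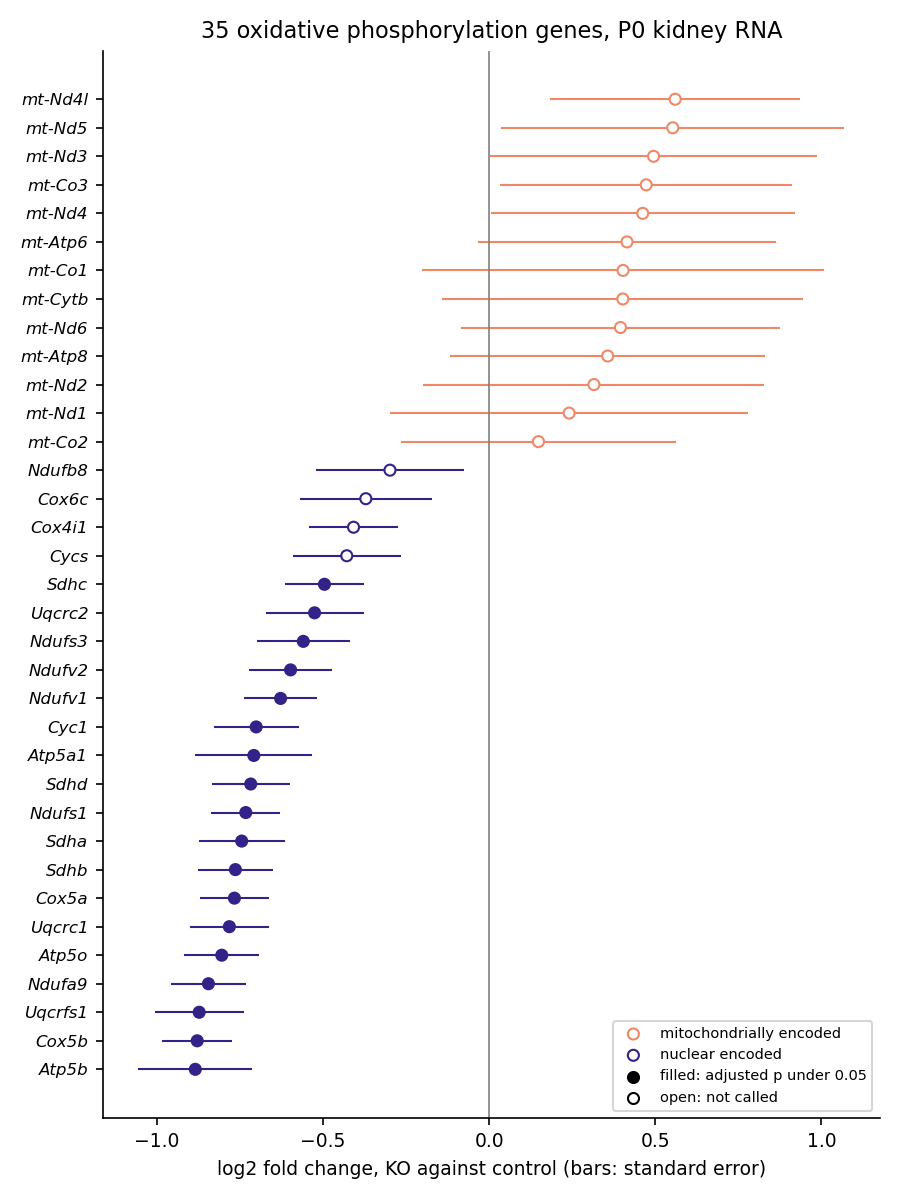
Log2 fold change of each of the 35 members, KO minus control, from edgeR, with bars of the standard error and filled points for an adjusted p under 0.05. The nuclear members lie between -0.88 and -0.30 with 18 filled points, and the mitochondrial members lie between 0.15 and 0.56 with none.

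Promoter sequence is shown for 3 nuclear members and a testis form of a complex IV subunit because nuclear respiratory genes are known to share binding motifs for NRF1, factors of the ETS family and YY1. Sdha and Sdhd, both in complex II, hold such motifs. Atp5b, the nuclear member with the most negative fold change, and Cox7b2, the isoform that was absent in controls, hold no match to the exact patterns searched. Looser forms of these motifs were not searched. Each line gives the 250 bases before the annotated start, read 5′ to 3′ on the gene's own strand from RefSeq on GRCm38.p6, with matches in capitals. They are Sdha at chr13:74350241-74350490 (minus strand), Sdhd at chr9:50603850-50604099 (minus), Atp5b at chr10:128083057-128083306 (plus) and Cox7b2 at chr5:71548206-71548455 (minus).
Sdha: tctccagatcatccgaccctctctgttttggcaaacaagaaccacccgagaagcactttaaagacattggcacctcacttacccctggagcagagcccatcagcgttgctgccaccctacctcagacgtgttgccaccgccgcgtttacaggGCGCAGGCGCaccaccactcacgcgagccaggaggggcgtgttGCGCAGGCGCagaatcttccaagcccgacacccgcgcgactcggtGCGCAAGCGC
Sdhd: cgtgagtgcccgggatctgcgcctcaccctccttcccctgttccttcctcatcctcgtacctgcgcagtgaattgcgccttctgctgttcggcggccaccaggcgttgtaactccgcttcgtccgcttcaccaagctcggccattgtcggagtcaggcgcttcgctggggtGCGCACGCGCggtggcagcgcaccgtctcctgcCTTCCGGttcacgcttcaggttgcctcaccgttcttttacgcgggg
Atp5b: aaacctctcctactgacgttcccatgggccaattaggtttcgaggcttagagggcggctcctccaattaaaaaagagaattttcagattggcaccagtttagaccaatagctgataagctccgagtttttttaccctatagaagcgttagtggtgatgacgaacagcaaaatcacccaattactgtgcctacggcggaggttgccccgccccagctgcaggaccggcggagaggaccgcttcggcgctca
Cox7b2: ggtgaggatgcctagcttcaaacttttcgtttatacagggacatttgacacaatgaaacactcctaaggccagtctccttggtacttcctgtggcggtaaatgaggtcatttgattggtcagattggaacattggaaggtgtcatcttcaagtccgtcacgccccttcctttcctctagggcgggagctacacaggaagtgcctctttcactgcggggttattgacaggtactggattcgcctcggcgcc

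The motifs searched on both strands were GCGCA, then any base, then GCGC for NRF1, CCGGAAG for the ETS family and AAGATGGCG for YY1, and the ETS and YY1 patterns can share the letters AAG where they adjoin, which no member's matches did. In Sdha the NRF1 pattern began 98, 55 and 10 bases before the start, and in Sdhd it began 79 bases before with an ETS match on the other strand at 46. A promoter entry, running from 250 bases before the start to 50 after it, was held for 15 of the 22 nuclear members. The NRF1 pattern was in 4 of these 15 promoters (26.7%), those of Sdha, Sdhd, Uqcrc1 and Atp5o, against 4.6% of all 32851 mouse promoters and 8.34% of the 16154 of genes tested. The ETS pattern was in 3 of 15 (20%, Ndufs3, Sdhb and Sdhd), against 8.86% and 14.8%. The YY1 pattern was in Ndufa9 alone (6.67%), against 1.4% and 2.42%. Of the 55 promoters of other nuclear subunits, 27.3% held the NRF1, 23.6% the ETS and 10.9% the YY1 pattern. Members with and without a match both fell: the 8 promoters with none include those of Atp5b, Cox5b and Uqcrfs1, which had the most negative fold changes of the set, as well as those of Cycs and Ndufb8, which did not pass. A match is a description of the letters and not evidence of binding.

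Complex I, NADH dehydrogenase, had 5 of its 6 nuclear members lower. Ndufs1, its largest iron-sulfur subunit, was at 179, 175 and 188 CPM in controls and 103, 115 and 108 in KO (log2 fold change -0.73, SE 0.10, edgeR adjusted p = 0.00268). Ndufv1, which binds NADH and the flavin, was at 195, 200.3 and 175 CPM against 116, 125 and 128 (-0.63, SE 0.11, adjusted p = 0.00711). In both genes the groups lay well apart, and the KO values spanned a narrow range. Ndufa9, an accessory subunit near the junction of the arms, was at 122, 105 and 115 CPM against 58.6, 68.6 and 63.6, the most negative change of the 6 members in the complex (-0.84, SE 0.11, adjusted p = 0.002). Ndufv2 was at 148, 163 and 126 CPM against 90.8, 96.5 and 101 (-0.60, SE 0.12, adjusted p = 0.0155). Ndufs3 was at 131, 135 and 100.05 against 78.1, 80.4 and 90.1 (-0.56, SE 0.14, adjusted p = 0.0326). Both are subunits of the matrix arm, and in both control 3 was the lowest control. Ndufb8, an accessory subunit of the membrane arm, did not pass, at 211, 319 and 170.3 CPM against 195, 169.9 and 205 (-0.30, SE 0.22, adjusted p = 0.446). Its groups overlapped, and control 2 stood above all other libraries.

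All 4 subunits of complex II, succinate dehydrogenase, fell. This complex also serves the citric acid cycle and is encoded by nuclear genes alone. Sdha, the flavoprotein that oxidises succinate, was at 408, 355 and 417 CPM in controls and 220.2, 252 and 232 in KO (-0.74, SE 0.13, edgeR adjusted p = 0.00668). Its iron-sulfur partner Sdhb was at 188, 189 and 159.8 against 101, 107 and 108 (-0.76, SE 0.11, adjusted p = 0.00331). The lowest control lay well above the highest KO library in both. The membrane anchors moved likewise: Sdhd was at 232, 231 and 201 CPM against 123, 139 and 141 (-0.72, SE 0.12, adjusted p = 0.00522), and Sdhc was at 165, 152 and 132 against 99.4, 110.3 and 109 (-0.50, SE 0.12, adjusted p = 0.0274).

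All 4 nuclear members of complex III, cytochrome bc1, fell. Uqcrfs1, the Rieske iron-sulfur protein, was at 228, 208 and 178 CPM in controls and 100.1, 120.3 and 115 in KO (-0.87, SE 0.13, edgeR adjusted p = 0.00385). Cyc1, the haem protein that donates electrons to cytochrome c, was at 297, 299 and 246 against 161, 181 and 176 (-0.70, SE 0.13, adjusted p = 0.00854). Both are electron carriers of the complex and had no overlap between groups. The core protein Uqcrc1 was at 377, 356 and 332 CPM against 198, 217 and 204 (-0.78, SE 0.12, adjusted p = 0.00364). Its partner Uqcrc2 was at 321, 353 and 257 against 201, 221 and 225 (-0.53, SE 0.15, adjusted p = 0.0488), nearest the threshold of all the members that passed. Cycs, the somatic cytochrome c, was at 93.3, 118 and 75.4 CPM against 66.9, 71.8 and 74.1 (-0.43, SE 0.16, adjusted p = 0.124). It did not pass, although its highest KO library lay just under its lowest control.

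Complex IV, cytochrome c oxidase, was split. Cox5b and Cox5a, subunits that surround the catalytic core, fell: Cox5b was at 228, 208 and 230.4 CPM in controls and 118, 122 and 122 in KO (-0.88, SE 0.11, edgeR adjusted p = 0.00131), and Cox5a at 147, 135 and 135 against 76.3, 84.6 and 83.8 (-0.77, SE 0.10, adjusted p = 0.00221). Cox5b had the smallest p of all nuclear members. Cox4i1, the broadly expressed form of subunit 4, was at 457, 503 and 427 CPM against 332, 334 and 379 (-0.41, SE 0.13, adjusted p = 0.0827), without overlap but short of the threshold. Cox6c was at 203, 294 and 180.4 against 167, 154 and 202 (-0.37, SE 0.20, adjusted p = 0.276), with overlapping groups and control 2 again the highest library.

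All 3 members of complex V, the ATP synthase, fell. Atp5b, its catalytic beta subunit, was at 2082, 1863 and 1811 CPM in controls and 973, 1116 and 1030.05 in KO (-0.88, SE 0.17, edgeR adjusted p = 0.0114). Atp5a1, the alpha subunit, was at 1902, 1813 and 1517 against 1012, 1125 and 1065 (-0.71, SE 0.18, adjusted p = 0.0312). Atp5o, part of the stalk that joins the rotary head to the membrane, was at 289, 256 and 276 against 151, 155 and 164 (-0.80, SE 0.11, adjusted p = 0.00255). The groups did not overlap in any of the 3.

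Leaving out single libraries divided the 18 members that fell. For 9 of them, Ndufs1, Ndufa9, Sdhb, Sdhd, Uqcrc1, Uqcrfs1, Cox5a, Cox5b and Atp5o, the call held whichever library was left out. The other 9 lost it without KO 1, at edgeR adjusted p from 0.0543 (Ndufv1) to 0.203 (Uqcrc2), while their log2 fold changes without it ran from -0.84 to -0.45. Ndufv1, Sdha and Cyc1 lost it without KO 1 alone, Ndufv2 and Atp5b without any of the 3 KO libraries, and Ndufs3, Sdhc, Uqcrc2 and Atp5a1 also without control 1 or control 2. Without control 3, in contrast, Cycs, Cox4i1 and Cox6c passed too (adjusted p = 0.00683, 0.0114 and 0.0499), which made 21 of 22.

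**Figure D2:**
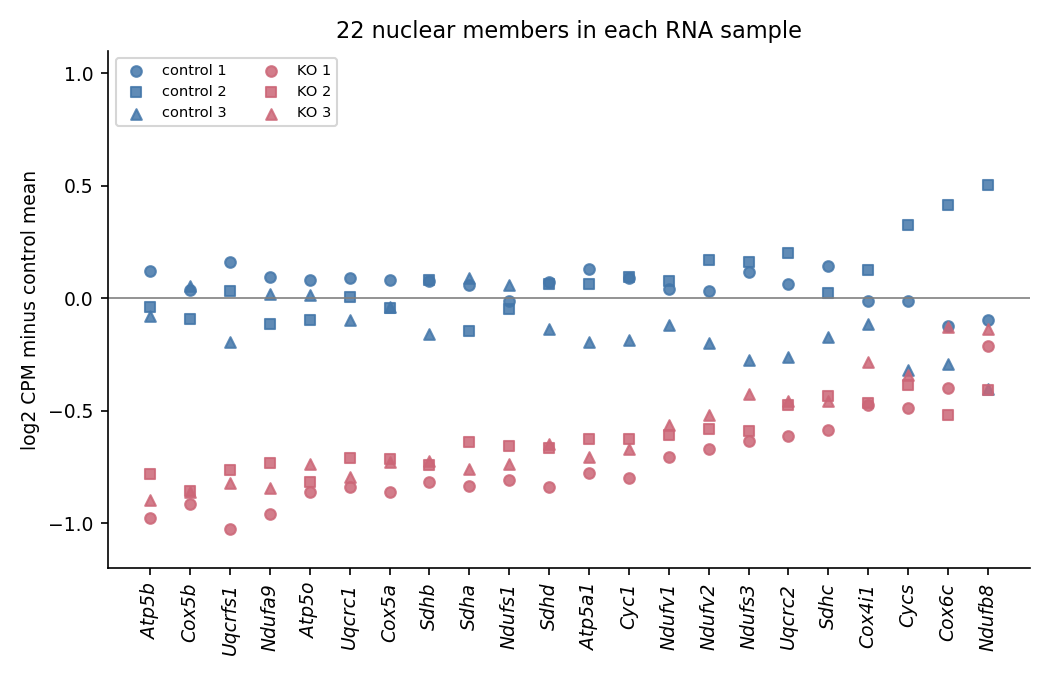
Each of the 22 nuclear members (x axis) in each of the 6 RNA libraries, as log2 CPM minus the mean of the 3 controls (y axis), with colour for group and point shape for replicate. KO libraries have medians of -0.80, -0.63 and -0.69, and control 3 has the lowest median of the controls at -0.15.

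Summed over the 22 nuclear members, counts made up 0.880%, 0.879% and 0.844% of all non-mitochondrial gene counts in controls and 0.544%, 0.582% and 0.571% in KO. The means were 0.867% ± 0.0204 and 0.566% ± 0.0193 (SD, n = 3 each), a ratio of 0.652. The 2 libraries nearest each other across the groups, control 3 and KO 2, remained far apart on this scale. Because Atp5a1 and Atp5b hold much of the sum, it was also taken without them, which gave a ratio of 0.686.

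The other nuclear subunits of the same complexes also fell where they passed. Of 57 tested, 28 fell (49.1%), 0 rose and all 57 log2 fold changes were negative, with a median of -0.48. In complex I 15 of 30 fell, led by Ndufb10 (85.9, 67.9 and 89.3 CPM in controls, 35.5, 41.2 and 41.5 in KO, -1.04, edgeR adjusted p = 0.00198) and Ndufa10 (-0.85, adjusted p = 0.00245). In complex III 4 of 5 fell, with Uqcr10 at -0.70 (adjusted p = 0.00431) and Uqcrb at -0.71 (adjusted p = 0.00499). In complex IV 5 of 8 fell, with Cox6a1 at -0.84 (adjusted p = 0.00177) and Cox6b1 at -0.78 (adjusted p = 0.00223). In complex V 4 of 14 fell, with Atp5g1, which encodes the same proton-carrying ring protein as Atp5g3, at -0.96 (adjusted p = 0.00148) and Atp5g3 at -0.76 (adjusted p = 0.00454). Factors that assemble the complexes stayed nearer the background, with 4 of 44 lower (9.09%) and 0 higher, among them Ecsit (-0.87, adjusted p = 0.00558) and Foxred1 (-0.48, adjusted p = 0.0333), both needed for complex I. Foxred1 lost its call when control 2 or any KO library was left out (adjusted p 0.0661 to 0.137).

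Subunit isoforms restricted to other tissues did not share 1 direction. Cox7b2, the testis form of complex IV subunit 7b, had 0 counts in each control and 68, 46 and 69 counts in KO. Over the groups this was at least 69.0-fold higher against a floor of 3 counts (edgeR adjusted p = 0.000942), at a low level of 1.51 to 2.62 CPM. With 0 counts in each control, Cox7b2 passed the count filter through its KO counts alone, so its p is not independent of that selection. Cox7a1, the heart and muscle form, fell from 4.97, 3.46 and 6.22 CPM to 1.09, 1.48 and 1.1 (-2.00, SE 0.31, adjusted p = 0.00399). Cox4i2, an isoform found mainly in lung and smooth muscle, was at 10.7, 9.84 and 3.51 CPM against 5.52, 7.51 and 9.8, and Cox6b2, a testis form, was at 15.5, 19.5 and 16.8 against 17.6, 16.8 and 19.95. Neither passed, with edgeR adjusted p = 0.932 and 0.829, and the sign of both depended on which library was left out. Ndufa4l2 was at 32.8, 26.6 and 18.1 CPM against 11.4, 14.4 and 19.9 (-0.76, adjusted p = 0.102). The other 4 of the 9 isoforms listed did not reach the count filter.

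**Figure D3:**
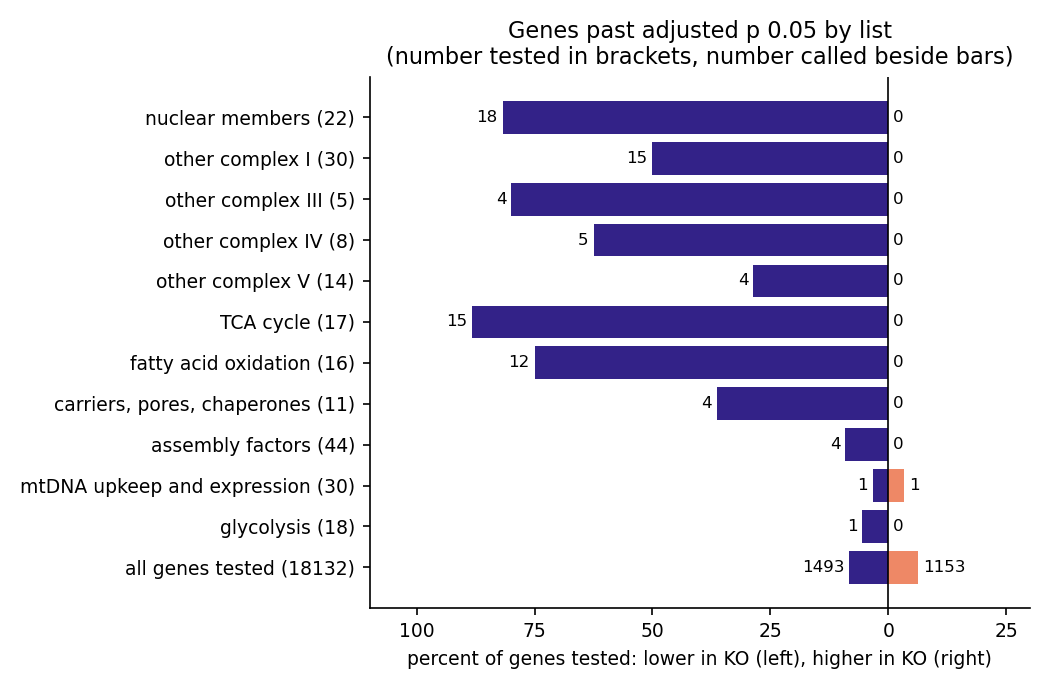
Percent of tested genes lower and higher in KO by edgeR at an adjusted p under 0.05, for the members and for each related gene list, with bars to the left for lower and to the right for higher and the number of genes beside each bar. Over all genes tested 8.23% were lower and 6.36% higher. Among the lists drawn, the citric acid cycle with pyruvate dehydrogenase (88.2% lower) and the nuclear members (81.8%) have the highest shares. Glycolysis (5.56%) and the upkeep of mitochondrial DNA (3.33%) have the lowest.

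Fuel pathways that feed the chain differed from glycolysis in their counts. Of 17 genes of the citric acid cycle and the pyruvate dehydrogenase complex (Pdha1, Pdhb, Dlat and Pdhx), 15 fell and 0 rose (median -0.64). They were led by Idh3a, the catalytic subunit of the NAD-dependent isocitrate dehydrogenase (126, 127 and 121 CPM against 61.1, 70.6 and 63.3, -0.93, edgeR adjusted p = 0.000989), and Suclg1 (-0.86, adjusted p = 0.00127). Fatty acid oxidation had 12 of 16 genes lower and 0 higher (median -0.90), against 8.23% and 6.36% of all genes tested. In all 16 every KO library lay below every control, which held for 17.8% of all genes tested. In some of them control 3 stood far above the other controls, which enlarges the fold change. Such genes were Ehhadh (23.1, 18.9 and 231 CPM against 10.3, 8.75 and 9.35) and Cpt1a (125, 100 and 297 against 68.5, 69.2 and 62.2). Acadm, the medium-chain acyl-CoA dehydrogenase, was at 272, 205 and 331 CPM against 77.7, 103 and 95.5 (-1.55, adjusted p = 0.00157), and Etfb, which carries electrons from these enzymes to the chain, was at -0.85 (adjusted p = 0.00167). For glycolysis 1 of 18 genes fell and 0 rose. That gene was Pfkp, a phosphofructokinase, at 60.4, 50.5 and 42.6 CPM against 22.2, 31.0 and 27.8 (-0.92, adjusted p = 0.0102). The difference between these lists was not tested.

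Of 11 genes for mitochondrial carriers, pores and chaperones outside the chain, 4 fell (36.4%) and 0 rose, against 8.23% and 6.36% of all genes tested. Mitochondrial mass was not measured. Slc25a5, an ADP/ATP carrier, was at 568, 516 and 530.2 CPM against 215, 237 and 193 (-1.33, edgeR adjusted p = 0.000645), and Slc25a3, the phosphate carrier, was at -0.83 (adjusted p = 0.00672). Of 9 regulators of mitochondrial gene programmes 4 fell and 0 rose. Esrrb, an orphan nuclear receptor, went from 21.3, 22.9 and 15.6 CPM to 1.37, 2.82 and 1.03 (-3.51, SE 0.38, adjusted p = 0.000838), and its relative Esrrg from 56.5, 54.2 and 64.6 to 26.4, 25.6 and 21.5 (-1.25, SE 0.13, adjusted p = 0.000753). Also lower, and named after their values were seen, were the coactivator Ppargc1a (66.0, 51.9 and 65.1 against 33.0, 29.2 and 24.4, -1.08, adjusted p = 0.00279) and Esrra (-0.66, adjusted p = 0.0175). Over the 9 regulators, every KO library lay below every control in 5 and above in 2, against 17.8% and 16.5% of all genes tested. Those 2 were Nrf1 (0.23, edgeR adjusted p = 0.21) and Gabpa (0.23, adjusted p = 0.196), also named after their values were seen. Neither passed. Of 30 genes that maintain, transcribe or translate mitochondrial DNA, 1 fell and 1 rose (3.33% each): Lrpprc, which stabilises mitochondrial mRNA, was at -0.42 (adjusted p = 0.0378), and Pnpt1, the mitochondrial polynucleotide phosphorylase, rose from 35.2, 50.2 and 43.2 CPM to 143, 120.1 and 135 (1.63, SE 0.15, adjusted p = 0.000418). The calls of Lrpprc, Esrra and Slc25a3 were lost when single libraries were left out, with adjusted p up to 0.156, 0.0862 and 0.0547, and KO 1 was such a library for all 3.

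Markers of the segments richest in mitochondria moved in the same direction as the nuclear members. All 10 proximal tubule markers fell (median -3.32), with a summed level of 2094, 1955 and 5127 CPM in controls and 364, 412 and 444 in KO. Lrp2 (megalin, -2.22, edgeR adjusted p = 0.000572) and Aqp1 (-2.27, adjusted p = 5.43e-05) were among them. Of 8 thick limb and distal markers 7 fell, with Umod (uromodulin) at -4.50 (adjusted p = 2.49e-05) and Slc12a1 at -3.02 (adjusted p = 0.000127), while Calb1 rose by 0.56 (adjusted p = 0.0274, up to 0.123 with 1 library left out). Their summed level was 1363 to 1858 CPM in controls and 414 to 480 in KO. None of these 18 markers was at 0 in any library. Control 3 had the highest summed proximal tubule markers of all libraries and also the lowest nuclear-member median among the controls. Podocyte markers fell in 6 of 8 (among them Podxl, -1.98, edgeR adjusted p = 0.000389), with a summed level of 1480 to 1735 CPM against 795 to 938. The part of these cell types in the fall of the nuclear members was not tested.

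Endothelial markers, of a lineage that does not descend from Six2 cells, also fell where they passed: 5 of 8 fell, 0 rose and in all 8 every KO library lay below every control (median -0.74). Tek was at -0.85 (edgeR adjusted p = 0.00312) and Plvap at -1.08 (adjusted p = 0.00577), and the summed level was 838 to 1213 CPM in controls and 514 to 656 in KO.

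Markers of the remaining cell types were called in smaller numbers. Nephron progenitor markers had 2 lower and 2 higher of 8 (Cited1 -2.53, edgeR adjusted p = 0.00556, and Tmem100 -1.32, adjusted p = 0.0056, against Osr1 0.95, adjusted p = 0.0214, and Eya1 0.65, adjusted p = 0.0463, the last 2 with calls lost when most single libraries were left out, at adjusted p up to 0.0946 and 0.164), at summed levels of 355 to 428 CPM in controls and 433 to 475 in KO. Ureteric and collecting duct markers had 1 lower and 2 higher of 8, the higher ones being Ret at 0.92 (adjusted p = 0.0329) and Calb1, which this list shares with the distal one. Stroma had 0 lower and 3 higher of 8, with Foxd1 at 1.63 (adjusted p = 0.00394) and Pdgfra at 0.79 (adjusted p = 0.00401). Leukocyte markers had 0 lower and 2 higher of 8, C1qa at 1.14 (adjusted p = 0.013) and Ptprc at 0.79 (adjusted p = 0.033). Of 6 erythroid markers tested 1 fell, Slc4a1 at -1.85 (adjusted p = 0.0305). Leaving out single libraries, KO 1 and control 1 among them, ended the calls of Ret, C1qa, Ptprc and Slc4a1, at adjusted p up to 0.112, 0.0648, 0.146 and 0.122. Summed stromal markers, at 3598 to 4188 CPM in controls and 3349 to 4016 in KO, overlapped. Cardiac and skeletal muscle, which is also rich in these subunits, was traced by markers that summed to 6.03 to 13.3 CPM in controls and 4.39 to 51.5 in KO, with KO 1 the highest. None of the 6 muscle markers tested passed. The part of these cells in the values of the members was not tested.

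The 13 mitochondrial mRNAs together made up 4.496%, 12.9% and 4.19% of gene counts in controls and 11.1%, 7.58% and 11.4% in KO. Control 2 stood apart from the other controls and above every KO library. The means were 7.19% ± 4.93 and 10.003% ± 2.10 (SD, n = 3 each), a difference of 2.81 points and a ratio of 1.39. Without control 2 the difference was 5.66 points and the ratio 2.30. Set against the nuclear members, mitochondrial counts were 5.36, 16.9 and 5.19 times the nuclear sum in controls and 22.9, 14.1 and 22.5 times in KO, where control 2 again lay among the KO libraries. Reads that mapped to more than 1 place, which the counter left out, were 16.1%, 24.6% and 13.97% of all reads in the count files in controls and 26.1%, 22.5% and 28.01% in KO, so their share was high in the same libraries that had high mitochondrial shares. Its part in the mitochondrial values was not tested.

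**Figure D4:**
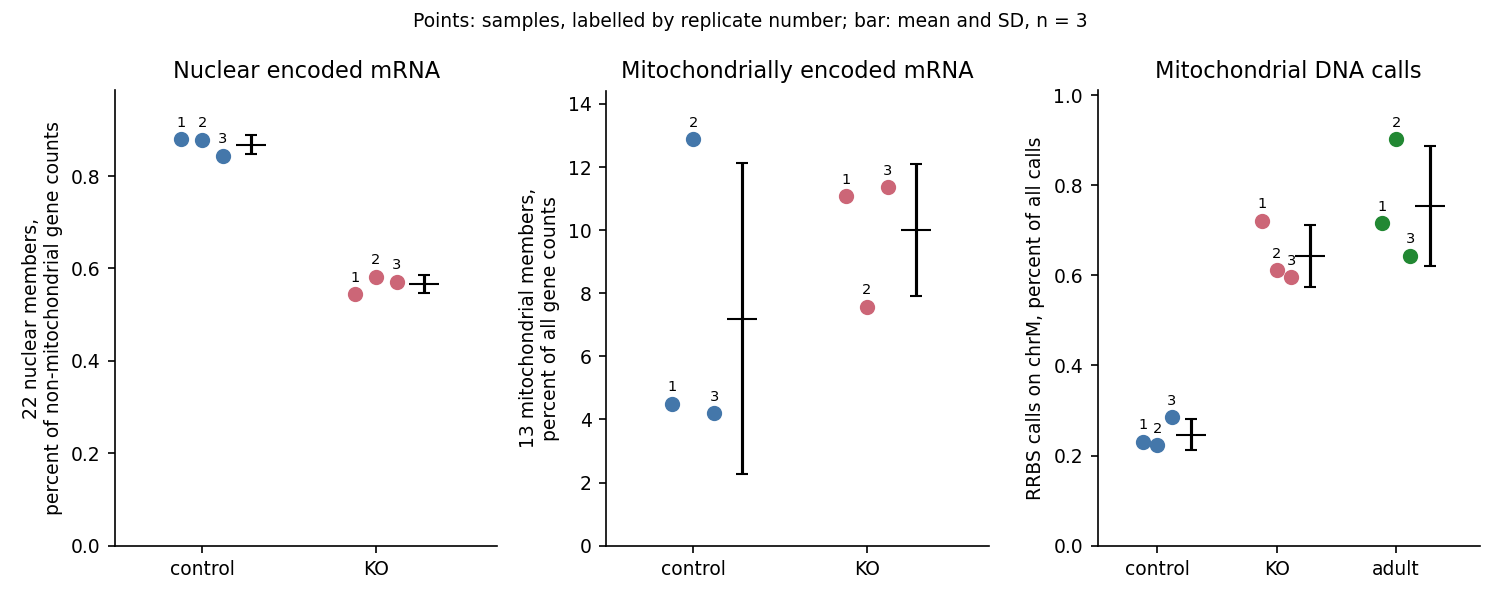
Share of non-mitochondrial gene counts held by the 22 nuclear members, share of gene counts held by the 13 mitochondrial mRNAs, and share of RRBS calls on mitochondrial DNA, with 1 numbered point per library and mean and SD beside each group of 3. Nuclear shares do not overlap, the mitochondrial mRNA share of control 2 (12.9%) lies above all KO libraries, and every KO and adult RRBS library (0.596% to 0.902%) lies above every control (0.223% to 0.285%).

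Of the 7 complex I subunits in mitochondrial DNA, which form its proton-pumping membrane arm, the 5 with many counts showed the pattern of the whole genome. mt-Nd1 was at 7390.2, 22559.5 and 6006 CPM in controls and 15944, 10404 and 16142 in KO (log2 fold change 0.24, SE 0.54, edgeR adjusted p = 0.828). mt-Nd2 was at 4200.5, 12560.00 and 3317 against 8729, 6294 and 9965 (0.32, SE 0.51, adjusted p = 0.757). In both, control 2 was the highest library and KO 2 the lowest KO library. mt-Nd4 was at 2658, 7719 and 2716 CPM against 6788, 4327 and 6925 (0.46, SE 0.46, adjusted p = 0.583). mt-Nd5 was at 4618, 14476 and 4062 against 12796, 8656 and 12517 (0.55, SE 0.52, adjusted p = 0.556). mt-Nd6, the protein-coding gene of the opposite strand, was at 1516, 4416 and 1189.8 against 3567, 2325 and 3476 (0.40, SE 0.48, adjusted p = 0.664). At chrM 13552 to 14070 it overlaps only the last bases of mt-Nd5 (11742 to 13565) on the other strand. The strand setting of the counting is not given in the sources used here, so reads within that short overlap cannot be told apart.

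The same order of libraries held in complexes III and IV. mt-Cytb, the haem-bearing core of complex III, was at 8325, 27289.5 and 8175 CPM in controls and 21859, 14142 and 21881 in KO (0.40, SE 0.54, edgeR adjusted p = 0.702). mt-Co1, the catalytic subunit of complex IV, was at 17346, 52996 and 13139 against 39029, 26818 and 44558 (0.40, SE 0.60, adjusted p = 0.732). In counts per 1000000 per kilobase of gene, mt-Co1 stood highest of the 13 in every library, at 10950 to 31080 in controls and from 18012 to 28346 in KO.

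The other 6 mitochondrial members had few counts, and together they held 0.0880% to 0.103% of all mitochondrial mRNA counts in each library. They were grouped after their counts were seen. mt-Co2, which receives electrons from cytochrome c, was at 17.6, 46.3 and 14.8 CPM against 32.7, 20.9 and 33.6 (0.15, SE 0.41, edgeR adjusted p = 0.866). mt-Co3 was at 12.4, 36.5 and 10.6 against 29.2, 21.1 and 32.2 (0.47, SE 0.44, adjusted p = 0.554). mt-Atp6, whose product forms the proton channel of complex V, was at 10.6, 33.6 and 9.78 against 27.4, 18.8 and 25.7 (0.42, SE 0.45, adjusted p = 0.62). At these far lower counts, too, control 2 was the highest library and KO 2 the lowest of the KO libraries. mt-Atp8 was at 1.49, 5.6 and 2.15 CPM against 4.24, 3.02 and 4.56 (0.36, SE 0.47, adjusted p = 0.695). mt-Nd3 was at 0.883, 3.27 and 1.2 against 2.4, 1.93 and 3.19 (0.50, SE 0.49, adjusted p = 0.585), and mt-Nd4l at 1.04, 2.33 and 1.09 against 2.21, 1.84 and 2.51 (0.56, SE 0.38, adjusted p = 0.393). mt-Nd4l was the only member of the 13 in which control 2 lay below a KO library. In all 13, each KO library exceeded controls 1 and 3.

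These 6 genes lie side by side on chrM, from 7013 to 10173 on GRCm38. A nuclear copy of a mitochondrial stretch lies on chromosome 1, where reads that fit both places count for neither. Its annotated gene Gm10925 (chromosome 1, 24613971 to 24614651), for which RefSeq lists mt-Atp6 as a synonym, had 1653, 4331 and 1582 counts in controls and 3655, 2629 and 3006 in KO. That is more than mt-Atp6 itself, at 349, 1037 and 360 against 880, 573 and 676 counts. Its neighbour Gm10222 (24612404 to 24612700) had 84, 221 and 119 against 235, 157 and 203. In both each KO library exceeded controls 1 and 3 in CPM, as in the mitochondrial members. Control 2 was the highest library for Gm10925 (140.2 CPM) but lay below KO 1 and KO 3 for Gm10222 (7.15 against 7.32 and 7.71 CPM). Neither passed (0.43, edgeR adjusted p = 0.564, and 0.64, adjusted p = 0.343). Without control 2 both rose (edgeR adjusted p = 0.00549 and 0.0373), as some mitochondrial members did. The part of reads that fit both places in the low counts of these 6 members was not tested.

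Leaving out control 2 changed the calls of the mitochondrial members. Without it 4 of 13 members rose, mt-Nd5 (1.38), mt-Co3 (1.25), mt-Atp6 (1.23) and mt-Nd6 (1.20), and the median of all 13 was 1.20. Without control 1 the values of mt-Nd1 and mt-Co2 were -0.01 and -0.07, and without control 3 those of mt-Nd1, mt-Nd2 and mt-Co2 were -0.08, -0.01 and -0.13, none past the threshold. Of the ribosomal RNAs, which selection for polyadenylated RNA depletes, mt-Rnr1 rose from 208, 405 and 159.5 CPM to 707, 584 and 1148 (1.66, SE 0.38, edgeR adjusted p = 0.0233). mt-Rnr2 did not pass, at 814, 2127 and 357 against 1864, 1569.9 and 3417 (1.05, SE 0.59, adjusted p = 0.299). The call of mt-Rnr1 was lost without control 1 (adjusted p = 0.0872), KO 1 (0.063) or KO 3 (0.0821).

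In the DNA the share of RRBS calls on chrM was 0.230%, 0.223% and 0.285% in controls, 0.722%, 0.611% and 0.596% in KO and 0.716%, 0.902% and 0.643% in adults. Every KO and every adult library lay above every control, while KO and adults overlapped. Each share carries a 95% Wilson interval of counting error alone, such as 0.5928% to 0.5998% for KO 3, the library with the fewest calls. KO exceeded control by 0.397 points and adults exceeded control by 0.508 (two-sided exact permutation p = 0.1 for each, the smallest that 3 against 3 allows, adjusted 0.15 over 3 comparisons). Between adults and KO the difference was 0.111 points (p = 0.3 by the same exact test, 0.3 after adjustment). The share counts mitochondrial against nuclear calls, so more mitochondrial DNA per cell and fewer nuclear calls cannot be told apart. Coverage also differed: KO libraries held 2464753 to 3033405 positions at medians of 4 to 7 calls per position. Controls held 2211044 to 2528174 positions at medians of 8 to 16, and adults 2363728 to 2510080 at 10 to 18. The part of this difference in the chrM share was not tested. Whether the RRBS and RNA libraries came from the same animals is not given in the sources used here, and the numbers were not paired across assays.

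Within chrM 316 positions had a call in any library, and 19 had at least 10 calls in all 9 libraries. These 19 lie in mt-Rnr1, mt-Rnr2, mt-Nd1 and mt-Co1, and they held 99.5% to 99.96% of the chrM calls of each library. At each of the 19 every KO library exceeded every control in calls per 1000000, with ratios of group means from 2.53 to 3.53 (median 2.81). The position with most calls, chrM 6232 in mt-Co1, held 18.1% of them. There the calls per 1000000 were 415, 397 and 496 in controls, 1306, 1070.1 and 933 in KO and 1250, 1644 and 1249 in adults. Adults exceeded controls at all 19, by 1.57 to 3.68 times, with no overlap at 18. Positions of 1 fragment share their reads and are not separate measurements.

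**Figure D5:**
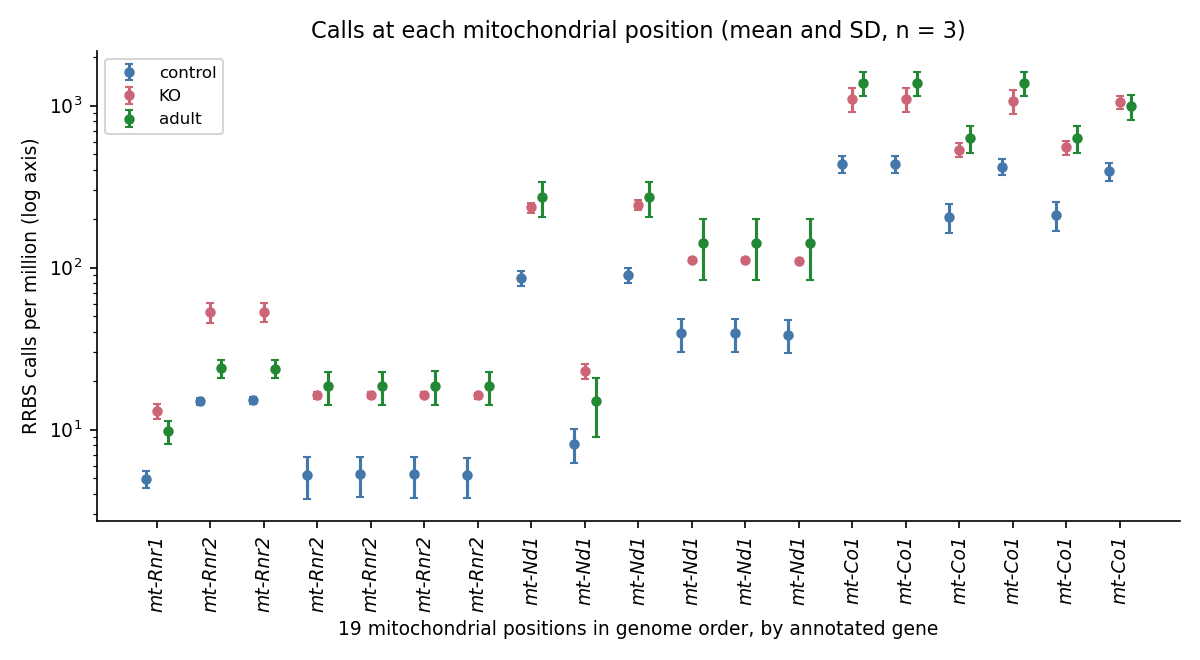
RRBS calls per 1000000 at the 19 mitochondrial positions with at least 10 calls in all 9 libraries, in genome order and named by gene, on a log axis, as mean and SD of 3 libraries per group. KO lies above control at every position, and adults lie below KO at 5 positions, of which those at chrM 1871 and 1912 in mt-Rnr2 have the lowest ratios.

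A pair of positions in mt-Rnr2 had the lowest ratios of adults to KO. At chrM 1871 the calls per 1000000 were 14.2, 15.4 and 15.6 in controls, 53.9, 45.0 and 60.2 in KO and 22.2, 27.4 and 22.1 in adults. KO was 3.53 times control there, and adults were 0.451 times KO, with every adult below every KO library. Position 1912 gave nearly the same values, at 0.447 times KO. Every adult also lay below every KO library at chrM 135 in mt-Rnr1 (0.747 times KO) and at chrM 3334 in mt-Nd1 (0.651 times KO). In all, 14 of the 19 positions were higher in adults than in KO.

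Mitochondrial cytosines were called methylated at low rates. Over all chrM calls the methylation level was 1.67% ± 0.0221 in controls, 1.64% ± 0.106 in KO and 0.412% ± 0.0205 in adults (SD, n = 3 each). KO and controls overlapped, and every adult lay below every P0 library. Calls in nuclear DNA were methylated at 48.6% to 51.4% in controls, 35.8% to 38.4% in KO and 43.4% to 45.1% in adults. The rate of incomplete bisulfite conversion, which would add to low levels, was not measured in these files.

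Around the starts of the nuclear members little methylation was present in any group. Of the 22, 14 had such data within 1000 bases of the start, counting CpG positions that reached 10 calls in each of the 9 libraries (140 positions). Their mean was 2.61%, 3.31% and 2.94% in controls, 2.89%, 2.52% and 1.70% in KO and 1.91%, 1.83% and 1.61% in adults. Controls and KO overlapped, at group means of 2.95% and 2.37%, a difference of -0.59 points. Cycs alone set the sign of that difference: over the other 13 members KO averaged 1.377% against 1.121% for controls, 0.26 points the other way, with 8 of the 13 higher in KO and 5 lower. Over all tested genes with such positions the level went from 9.53% to 7.22%. Within 250 bases of the start the members' difference was 0.46 points, also higher in KO.

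Cycs was the member with the most methylation near its start, at 22.1%, 30.4% and 27.9% in controls, 23.7%, 14.6% and 7.41% in KO and 18.1%, 17.2% and 15.9% in adults over 5 positions. Its RNA did not pass the test. Sdhd, whose promoter is shown above, was at 0.698% ± 0.254 in controls and 0.943% ± 0.503 in KO over 23 positions. Atp5b was at 0.595% ± 0.709 in controls against 0.293% ± 0.278 for KO over 12 positions (errors here are SD of 3 libraries). Over the 36 other subunits with such positions the mean was 6.19% in controls and 5.09% in KO. Among them Ndufb2, an accessory subunit of complex I, went from 52.7% ± 1.69 to 30.1% ± 8.22, without overlap. Its RNA did not pass (-0.20, edgeR adjusted p = 0.448). Ndufc2, also methylated near its start, was at 37.1% ± 6.33 in controls and 36.3% ± 6.13 in KO over 9 positions. The X-linked Ndufa1 was at 30.5% ± 6.50 in controls, 23.05% ± 4.25 in KO and 0.127% ± 0.220 in adults. Ndufb11, also X-linked and with 1 position, was at 22.3% ± 7.05, 14.8% ± 3.21 and 0%. The sex of the samples was not part of any comparison here, and its part in these X-linked values was not tested. These genes were named after their values were seen, and no test was run on single starts.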

How the data were processed

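RNA was measured in 6 kidney libraries and CpG methylation in 9. The authors deposited raw read counts per gene, made with STAR 2.4.1d and HTSeq 0.6.1 per the submitters' processing notes, on mm10/GRCm38. The strand setting is not given in the sources used here. For RRBS the authors deposited a methylation percent with methylated and unmethylated counts of calls per cytosine, made with Trim Galore and Bismark per the same notes. Reads not assigned to a gene, 22.9% to 35.8% of a library, were left out of tests.

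Counts were tested over all genes with edgeR 4.0.16 (TMM scaling, filterByExpr, quasi-likelihood test, R 4.3.3), with Benjamini-Hochberg adjustment over 18132 genes and a call at adjusted p under 0.05. Levels are counts per 1000000 (CPM) after TMM scaling, and SE were derived from the F statistic. Alternatives used DESeq2 1.42.0, limma 3.58.1 (voom with quality weights), other scalings, filters and thresholds, a replicate block, and each library left out in turn. On simulated counts of 18132 genes with 200 changed by a log2 of 1, the test recovered 47% and called 8 unchanged genes.

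The chrM share is methylated plus unmethylated calls on chrM over all calls, compared with exact permutation tests in scipy 1.17.1. Start methylation averaged positions with at least 10 calls in all 9 libraries. RefSeq tables on GRCm38.p6 gave names, positions and promoters. Libraries with the same number had correlations of deviations from their group means of -0.272, -0.0895 and -0.140, so the numbers did not pair them.

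All 35 members were reported. From each related list up to 2 genes per direction with the smallest p were named, plus all restricted isoforms that passed the filter and both genes of the nuclear mitochondrial copy. Ppargc1a, Esrra, Nrf1, Gabpa, Ehhadh and Cpt1a were named outside this rule. Of the marker genes chosen by this rule, 2 are not reported here. The members and lists were chosen with earlier results of these data known. One listed complex V gene, 2010107E04Rik, had no match in the files. The related lists were other subunits, restricted isoforms, assembly factors, upkeep of mitochondrial DNA and regulators. Further lists were the citric acid cycle with pyruvate dehydrogenase, glycolysis, fatty acid oxidation, mitochondrial carriers with pores and chaperones, and markers of 10 cell types.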

Additional observations from a re-analysis of the deposited data

How the results depend on the processing

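The nuclear members kept a negative log2 fold change under every RNA alternative run, and 0 of them rose in any. The number that fell was 18 in the reported fit, 19 with DESeq2, 20 with limma voom, 17 with DESeq2 size factors or with at least 10 counts in every sample, 18 with library size alone, with no filter or with mitochondrial genes left out of the scaling, and 12 at an adjusted p under 0.01. With single libraries left out it ranged from 9 to 21. With the replicate number as a replicate block it was 12, and calls over all genes went from 1493 lower and 1153 higher to 1005 and 798. Nothing in the labels says that the numbers pair these samples. The voom quality weight of control 3 was 0.165, the lowest. Among the scalings, library size alone put the median of all genes farthest from the reported -0.00, at 0.03.

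For the mitochondrial members 0 fell in any alternative, and the number that rose ranged from 0 to 4 with single libraries left out. Leaving out single libraries changed the sign of 5 genes. Without control 3, the lowest values were -0.077 for mt-Nd1, -0.0052 for mt-Nd2 and -0.13 for mt-Co2, and the highest, without control 2, were 1.08, 1.14 and 0.84. Without control 1, mt-Nd1 was at -0.012 and mt-Co2 at -0.072. Cox4i2 ranged from -0.44 to 0.19 and was at 0.015 with the replicate block, and Cox6b2 ranged from -0.012 to 0.16. The cause was not tested. The mitochondrial mRNA share differed by 1.32 to 5.66 points with single libraries left out and by 1.40 points when unassigned reads were added to the total.

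The chrM share of KO exceeded that of control by 0.358 to 0.421 points with single libraries left out, where the smallest exact permutation p allowed is 0.2, and by 0.33 points without the position with most calls. With the replicate block, an exact sign-flip permutation over 3 pairs gave p = 0.25 for both comparisons with controls and 0.5 for adults against KO. Start methylation of the nuclear members differed by -0.59 points as reported and by -0.85 to -0.25 with single libraries left out. It differed by 0.26 points, in the other direction, without Cycs, an alternative chosen after seeing the data, so 1 gene carries its sign. Within 250 bases it differed by 0.46 points, in that direction too, and the cause was not tested.

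Libraries of 3 a group limit what can be called: the test on simulated counts missed over 50% of genes changed by a log2 of 1. That simulation changed only 200 of 18132 genes, drawn from all levels of expression, while 14.6% of genes were called in the data. The share missed therefore does not carry over to the nuclear members, which are abundant. A mitochondrial member would need a change well above its standard error of 0.38 to 0.60 to be called. Depth limits start methylation to 14 of 22 nuclear members, and KO 3 has a median of 4 calls per position.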

Other observations

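Cyct, the testis form of cytochrome c that replaces Cycs in sperm, did not reach the count filter. A single position near its start was methylated at 77.4%, 83.8% and 81.3% in controls, 60%, 33.3% and 25% in KO and 100%, 79.1% and 94.1% in adults, with at least 5 calls per library, a minimum chosen after seeing the data. Every KO library lay below every control and every adult. For Cox7b2, which had counts in KO libraries and none in controls, no position near the start passed either minimum, so its methylation was not analysed here.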
